A study of Mus musculus with 8 samples.

Results

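The cytosolic ribosomal protein genes were examined in bulk RNA sequencing of mouse retina. Members were taken by symbol alone: Rpl or Rps followed by a number and an optional a, x or l, the stalk genes Rplp0 to Rplp2, and Rpsa, without symbols that hold "-ps". This gave 83 of the 26824 genes in the deposited count table, 49 of the large subunit (Rpl) and 34 of the small subunit (Rps). The rule itself uses no measured value. The pattern also took in Rps4l and Rps3a3, which the GENCODE M21 annotation lists as processed pseudogenes without a coding sequence, and it missed, for example, Fau, Rack1 and Rpl36al, which also encode ribosomal or ribosome-bound proteins. Rpl39l had 1 to 15 counts per library and did not pass the filter on low counts, so 82 members were tested.

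The cytosolic ribosome translates all messages encoded in the nucleus. Its small subunit reads the messenger RNA and its large subunit joins the amino acids, while the acidic stalk of Rplp0, Rplp1 and Rplp2 recruits the elongation factors. Ribosomal protein messages are short and abundant, and they usually begin with a run of pyrimidines, the 5′ terminal oligopyrimidine (TOP) tract, through which their translation is controlled together. Many members have processed pseudogenes and expressed retrocopies elsewhere in the genome. A few have diverged paralogues, such as Rpl22l1 beside Rpl22.

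The study compared retinas of mice labelled wild type (WT) and Kv8.2 knockout (KO). Kv8.2, encoded by Kcnv2, is a silent voltage-gated potassium channel subunit of photoreceptors. There were 3 WT and 5 KO libraries, numbered WT 1 to WT 3 and KO 2 to KO 6. Each held total RNA from 2 pooled retinas of an untreated mouse aged 1 month. The knockout allele, strain and sex are not given in the sources used here, and the authors tested only 3 KO libraries without naming them, so all 5 were used.

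Library depth was 17759146 to 25188870 counts. Kcnv2 was present in every library, at 519 to 551 CPM (counts scaled to a library of 1000000) in WT and 398 to 585 CPM in the libraries labelled KO. The log2 fold change of -0.24 (SE 0.14) did not pass edgeR's quasi-likelihood test (adjusted p 0.275). The deposited counts therefore do not check the KO labels, and the libraries are called "labelled KO" for that reason. Retinal cell markers were detected in every library: the 4 Müller glia markers took 0.401% of counts in KO 2 and 0.280% to 0.333% in the others. The 3 bipolar cell markers took 0.0467% to 0.0552% in WT, 0.0560% in KO 2, 0.0503% in KO 3 and more, 0.0690% to 0.0723%, in KO 4 to KO 6. The 4 cone markers took 0.0650% to 0.0814% in WT and less, 0.0420% to 0.0597%, in the libraries labelled KO. The 5 microglia markers took 0.00227% to 0.00248% in WT and more, 0.00265% to 0.00364%, in the libraries labelled KO. For mitochondrial genes the share ran from 7.09% to 7.92% in WT and from 3.03% to 3.70% in KO 4 to KO 6, with KO 2 at 6.52% and KO 3 at 5.23%. The 10 lens markers together took 4.09% in KO 3 and at most 0.121% in the other libraries, with Cryaa, Crybb2 and Lim2 at 0 in at least 1 library. The part of these cell markers and of the mitochondrial share in the results below was not tested. Because of these differences KO 2 with KO 3 and KO 4 to KO 6 were also compared with WT separately. KO 2 and KO 3 also differed from each other: chi-square per degree of freedom over genes was 96.0 between them, against 33.6 to 46.8 between KO 2 and the WT libraries and 5.38 to 6.28 among KO 4 to KO 6. KO 3 was far from every library, at 61.5 to 79.2 from WT and 84.2 to 100.3 from KO 4 to KO 6. KO 2 was at 38.8 to 54.4 from KO 4 to KO 6. The labels name no batch, and neither set of KO libraries has WT libraries of its own, so such a difference and the genotype cannot be told apart.

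Levels differed widely between members. For members with near-identical copies, treated below, they also depend on how reads were shared among the copies. Mean CPM per kilobase of transcript, over all 8 libraries, had a median of 182 and was highest for Rplp1 (673), a stalk protein, followed by Rps29 (514) and Rpl13a (428). With the shortest transcript of the same coding sequence, Rps14 (506) and Rpl9 (442) also stood above Rpl13a. At the other end were Rpl39l (0.298) and Rps3a3 (0.827), then Rpl12 (8.58) and Rpl5 (18.7). Among the paralogues, Rps4l was at 24.7, Rps27l at 18.8, Rpl7l1 at 20.4 and Rpl22l1 at 68.9 CPM per kilobase, below the median of the members. Rps14, Rpl9, Rps3a3, Rpl12 and Rpl5 are named here after their values were seen.

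Of the 82 tested members 4 passed an adjusted p of 0.05, against 1529 of 20167 genes overall (7.58%). Rps2, Rps16 and Rpl27 were higher in the libraries labelled KO, as were 4.74% of all genes. Rpl22l1 was lower, as were 2.84% of all genes. The median log2 fold change of the members was -0.02, with 40 members above and 42 below 0, and it was 0.10 without WT 2. Their middle 50% lay between -0.22 and 0.18, against -0.25 and 0.25 for all genes, and 51 members were within 0.25 of 0. The small number of calls is thus close to the background and no result about the members as a group. At an unadjusted p under 0.05 there were 23 of 82 members, against 27.3% of all genes. In bulk tissue, fewer cells of a type and less RNA per cell cannot be told apart.

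Rpl22l1, the paralogue of the large-subunit protein Rpl22, had the lowest adjusted p of the members. The gene (ENSMUSG00000039221) lies at chr3:28805436-28807424 on the plus strand of GRCm38. WT 1 to WT 3 had 47.3, 62.4 and 47.2 CPM, and KO 2 to KO 6 had 32.3, 32.2, 30.1, 27.2 and 25.4 CPM. Every library labelled KO lay below every WT library, a separation that 10.1% of all tested genes show. It was 1.78-fold lower, on the log2 scale -0.83 (SE 0.12), and edgeR's quasi-likelihood test gave an adjusted p of 0.00638. It remained called when any 1 library was left out (adjusted p 0.00234 to 0.0459), and lost its call without both KO 4 and KO 5, at -0.80. It also lost it with a correction for transcript length and GC content together (described below), at -0.26 (adjusted p 0.166, edgeR). Its log2 fold change stayed between -0.91 and -0.67 over the fits without 1 library or without a pair of libraries labelled KO. KO 2 and KO 3 alone gave -0.70 with an adjusted p of 0.0668, and KO 4 to KO 6 gave -0.91 with an adjusted p of 3.79e-05.

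Rpl22, the partner of Rpl22l1, was at 128, 150 and 138 CPM in WT and at 118, 130, 108, 107 and 100 CPM in KO 2 to KO 6. The groups overlapped, and its log2 fold change of -0.30 did not pass the test (adjusted p 0.0911, edgeR). It was called lower in KO 4 to KO 6 alone, at -0.39 (adjusted p 0.000663, edgeR). Per kilobase, Rpl22l1 stood at 137%, 154% and 127% of Rpl22 in WT. It stood at 102%, 92.2%, 103%, 94.4% and 94.3% of Rpl22 in KO 2 to KO 6, below WT in each. These percentages use the Rpl22 transcript of 2051 bases: the shorter transcript with the same coding sequence has 474 bases, and with it Rpl22 stood at a mean of 258 CPM per kilobase over all libraries, above the 68.9 of Rpl22l1. Which of the pair is higher therefore depends on the transcript taken, while the order of the libraries does not. Rpl22 was named after its values were seen.

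Rps2, a small-subunit protein at the entry of the messenger RNA channel, stood at 187, 197 and 188 CPM in WT and at 272, 292, 250, 260 and 263 CPM in KO 2 to KO 6. All 5 libraries labelled KO were above all 3 WT libraries. The gene (ENSMUSG00000044533) lies at chr17:24718116-24721929 on the plus strand. The rise was 1.40-fold, on the log2 scale 0.49 (SE 0.09), and edgeR gave an adjusted p of 0.0169. Rps2 was also the single member called with KO 2 and KO 3 alone, at 0.57 with an adjusted p of 0.0496. Leaving out WT 1, WT 2 or WT 3 took the call away at log2 fold changes of 0.47, 0.52 and 0.48, with adjusted p-values of 0.00273 to 0.105 over the 8 fits without 1 library. Rps2 also lost its call with the GC correction described below, at 0.31 (adjusted p 0.134, edgeR).

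Rps16 (ENSMUSG00000037563, chr7:28350652-28353155, plus strand), a small-subunit protein of the head, was at 74.7, 89.7 and 79.7 CPM in WT. It was at 120, 97.6, 106, 119 and 112 CPM in KO 2 to KO 6. The groups did not overlap, and the log2 fold change was 0.45 (SE 0.10) with an adjusted p of 0.0283 in edgeR. Rpl27 (ENSMUSG00000063316, chr11:101442298-101445529, plus strand), of the large subunit, was at 113, 126 and 112 CPM in WT and at 148, 140, 170, 169 and 169 CPM in KO 2 to KO 6. Its 3 highest libraries were KO 4 to KO 6, and its log2 fold change of 0.44 (SE 0.10) had an adjusted p of 0.0296 in edgeR. Both calls held without KO 2 or without KO 3 and were lost without any other single library. Over the fits without 1 library or without a pair of libraries labelled KO, the log2 fold changes lay between 0.38 and 0.53 for Rps16 and between 0.38 and 0.54 for Rpl27. A covariate for KO 4 to KO 6 turns the tested difference into that of KO 2 and KO 3 against WT. With it both lost their calls, at 0.42 and 0.30. With the GC correction described below Rps16 kept its call and Rpl27 lost it, at 0.26 (adjusted p 0.0508, edgeR).

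**Figure D1:**
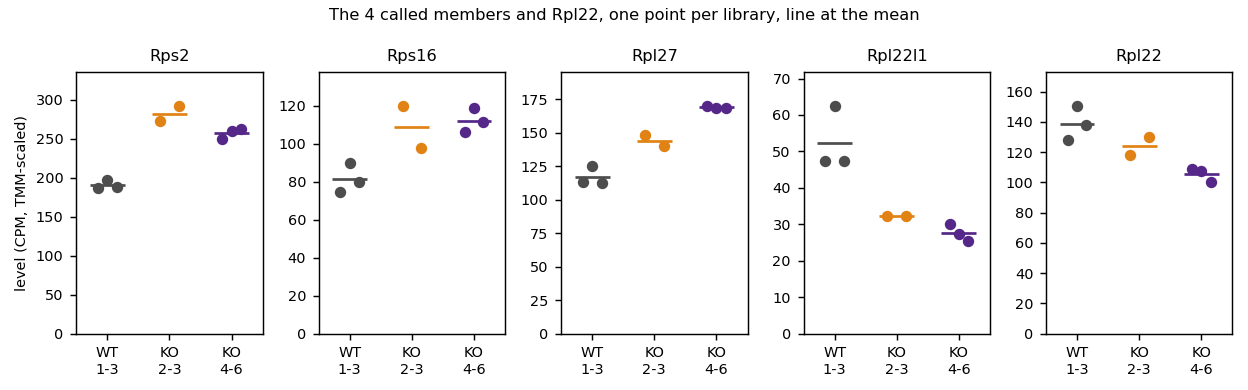
Level in TMM-scaled CPM (vertical axis, from 0) of the 4 called members and of Rpl22, with 1 point per library and a line at the mean of WT 1 to WT 3, of KO 2 and KO 3 and of KO 4 to KO 6. Rps2, Rps16 and Rpl27 lie above WT in all 5 libraries labelled KO and Rpl22l1 lies below WT in all 5, while Rpl22 overlaps.

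In all, 11 members had every library labelled KO above every WT library, where 10.8% of all tested genes did, and 3 had every one below, where 10.1% did. Besides the called genes, the 11 included Rpsa, Rps20 and Rpl18, and the 3 that were lower included Rps15a. The number of members called moved with single libraries: 1 without WT 1, WT 2 or WT 3, 2 without KO 4, KO 5 or KO 6, 9 without KO 2 and 20 without KO 3. The share of all genes called moved likewise, from 0.636% to 0.955% without a WT library and 1.84% to 2.68% without KO 4, KO 5 or KO 6 to 13.9% without KO 2 and to 3992 of 19920 genes without KO 3, so these counts are no result about the members. With library size alone as scaling the 4 calls split into 2 higher and 2 lower, since Rpl22 joined and Rpl27 left.

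The called members were examined around their annotated starts, because the TOP tract is the sequence feature these genes are known to share. RefSeq promoter windows on GRCm38.p6 matched 61 of the 83 members by symbol, with 72 annotated starts. A C followed by at least 6 bases that were each C or T, read on the transcribed strand within 50 bases of either side of the start, was present at 61 of these 72 starts (84.7%). Over all 32851 starts in the table it was present at 13386 (40.7%). Such a run is a description of the letters only. The runs nearest to the start of the 4 called members, of Rpl22 and of Rps27 (treated below) are shown within 30 bases each, 5′ to 3′, with the run in capitals.
Rps2: actataaattgtCCCTTCCgcggcgcctcc
Rps16: aattcacacgtCCCCTCTCaggcttcgacg
Rpl27: gtcatcctcgCTCCTCCCTCCacacgccgg
Rpl22l1: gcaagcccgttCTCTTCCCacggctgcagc
Rpl22: ccgtctgaCTCCTCCCTTTCCCgacagccg
Rps27: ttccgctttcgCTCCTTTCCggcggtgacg
The windows lie at chr17:24720078-24720107 (Rps2), chr7:28350632-28350661 (Rps16), chr11:101442193-101442222 (Rpl27), chr3:28805500-28805529 (Rpl22l1) and chr4:152325679-152325708 (Rpl22), all on the plus strand, and at chr3:90213632-90213661 (Rps27) on the minus strand. Rpl22l1, which fell, and the 3 members that rose all carried a run, of 8, 7, 8 and 11 bases for Rpl22l1, Rps2, Rps16 and Rpl27, so its presence did not separate them. Counted from the annotated start, the runs began at position 4 in Rpl22l1 and 28 in Rps2, and before the start, at -46 and -42, in Rps16 and Rpl27.

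When KO 2 and KO 3 were compared with WT, the members were mostly a little higher. Their median log2 fold change was 0.12, and 58 of 82 were above 0. Rps2 was the single call, where 0.891% of all genes were called. When KO 4 to KO 6 were compared with WT, 48 of 82 members were called, where 42.8% of all genes were. Of the 48, 31 were lower, as were 20.5% of all genes, and 17 were higher, as were 22.3%. The median was -0.10, with 52 of 82 members below 0. The WT libraries are shared by the pair of comparisons, whose values are therefore set side by side with no result read from their likeness.

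Of the 31 members called lower in KO 4 to KO 6, 23 belonged to the large subunit, which holds 48 of the 82 tested members. Of all genes 20.5% were called lower and 22.3% higher there. Of 48 tested large-subunit members 23 were lower and 8 higher there, with a median log2 fold change of -0.18, and of 34 small-subunit members 8 were lower and 9 higher, with a median of 0.01. In KO 2 and KO 3 the medians of the large and the small subunit were 0.12 and 0.13. The difference between the subunits was not tested. The largest fall among the called members was that of Rpl5, which binds the 5S ribosomal RNA. Of the 31-base words of Rpl5, 94.8% occur in another gene, so counts of Rpl5 alone are uncertain. Its CPM values were 47.9, 53.0 and 43.8 in WT, 38.1 in KO 2, 49.3 in KO 3, and 27.4, 24.6 and 21.5 in KO 4 to KO 6. Its log2 fold change in KO 4 to KO 6 was -0.97 (adjusted p 1.24e-05, edgeR), while in KO 2 and KO 3 it was -0.14 (adjusted p 0.605). Rpl39, a very small protein of the exit tunnel, was at 103, 135 and 103 CPM in WT and at 77.2, 112, 67.1, 65.1 and 59.5 CPM in KO 2 to KO 6. KO 3 overlapped WT, and the value for KO 4 to KO 6 was -0.82 (adjusted p 4.13e-05, edgeR). Rpl5 and Rpl39 were named after their values were seen.

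**Figure D2:**
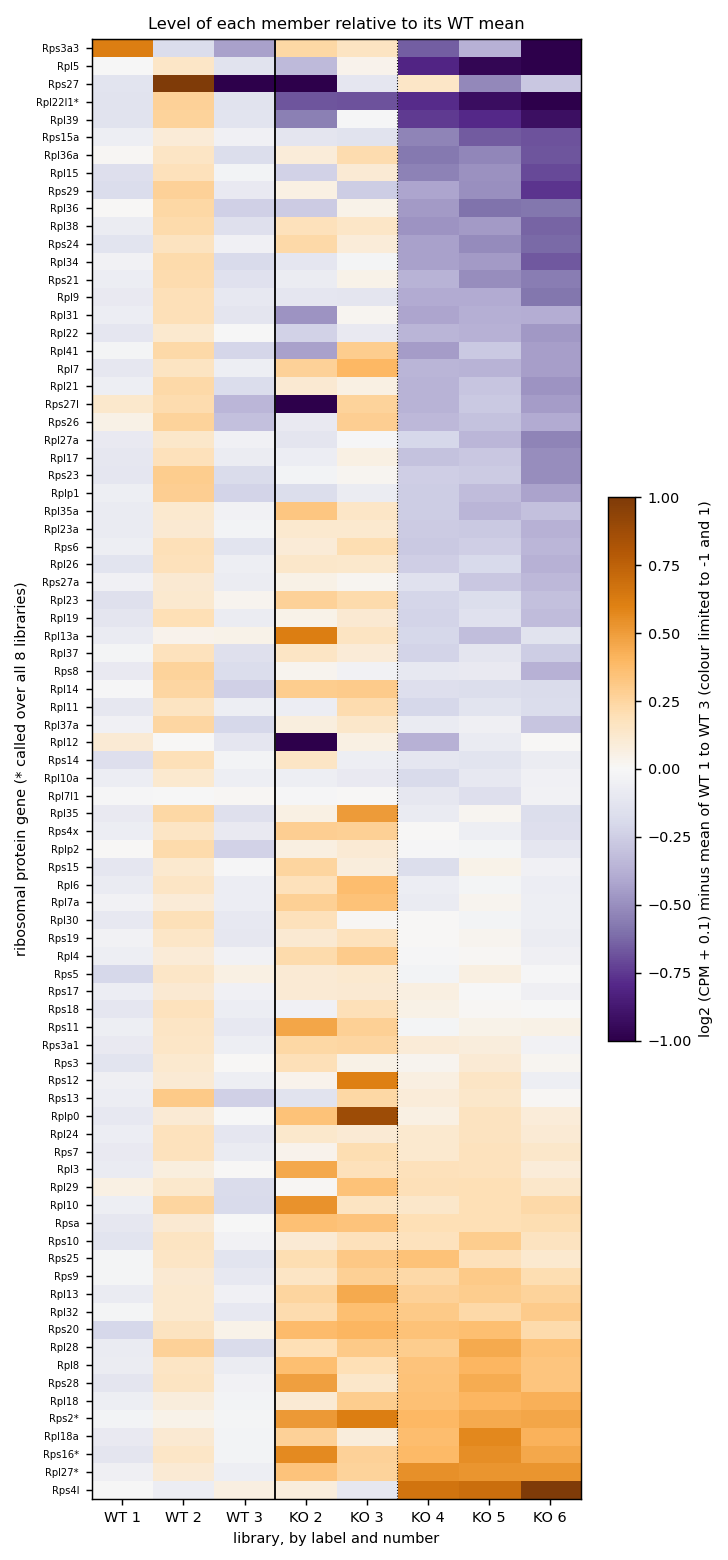
Log2 (CPM + 0.1) of each of the 82 tested members (rows) in each of the 8 libraries (columns), minus the member's mean over WT 1 to WT 3, with colour limited to the range -1 to 1 and rows sorted by the log2 fold change of KO 4 to KO 6 against WT. The order in KO 4 to KO 6, from low members at the top to high members at the bottom, follows from this sorting. KO 2 and KO 3 are above WT in most rows. Stars mark the 4 members called over all 8 libraries.

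The paralogues did not move as a set. Rps4l, a retrocopy of the X-linked small-subunit gene Rps4x, was at 18.2, 17.4 and 19.1 CPM in WT and, close to these, at 19.3 CPM in KO 2 and 16.9 CPM in KO 3. In KO 4, KO 5 and KO 6 it was at 28.8, 29.5 and 37.5 CPM, above all others. Over all 8 libraries its log2 fold change was 0.53 (SE 0.23, adjusted p 0.167, edgeR). For KO 4 to KO 6 it was 0.82 (adjusted p 5.11e-05), and for KO 2 and KO 3 it was -0.01. Rps4x itself had a log2 fold change of 0.08 (adjusted p 0.740), and was named after its values were seen. Rpl7l1, a paralogue of Rpl7, stayed between 48.9 and 55.2 CPM in every library, with -0.06 (SE 0.07, adjusted p 0.617). Rps27l, a paralogue of Rps27, ranged from 6.0 to 14.7 CPM, both extremes in libraries labelled KO, with -0.33 (adjusted p 0.408). Rpl39l, which is known mainly from the testis, had 2, 15 and 5 counts in WT and 6, 6, 4, 1 and 2 counts in KO 2 to KO 6. A count of 3, taken as the floor, equals 0.130 to 0.164 CPM here, so Rpl39l was at or near the floor except in WT 2.

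The 3 stalk genes did not pass the test over all 8 libraries. Rplp0, the stalk base, was at 158, 182 and 169 CPM in WT and at 216, 312, 176, 191 and 180 CPM in KO 2 to KO 6. KO 3 was the highest, KO 4 and KO 6 overlapped WT, and the log2 fold change was 0.34 (SE 0.18, adjusted p 0.249, edgeR). KO 2 and KO 3 against WT gave 0.64 for Rplp0, without a call when fitted alone (adjusted p 0.105, edgeR). The same difference was called with KO 4 to KO 6 kept in the fit under a covariate (adjusted p 0.0269, edgeR). Rplp1 had -0.26 (SE 0.13, adjusted p 0.231) and Rplp2 -0.00 (SE 0.11, adjusted p 0.981), and the direction of Rplp2 flipped under several settings. In KO 4 to KO 6 alone Rplp1 was called lower, at -0.34 (adjusted p 0.0199, edgeR). Rpsa, a protein of the small-subunit surface also known as the laminin receptor, was at 244, 284 and 262 CPM in WT and between 301 and 335 CPM in the libraries labelled KO. The groups did not overlap, yet its log2 fold change of 0.26 (SE 0.10) did not pass over all 8 libraries (adjusted p 0.118, edgeR). It was called in KO 4 to KO 6 alone, at 0.21 (adjusted p 0.0153, edgeR).

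Rps27, the member with the shortest transcript (345 bases), was the least steady. It was at 69.6, 294 and 21.4 CPM in WT and at 34.0, 70.5, 84.1, 53.2 and 62.6 CPM in KO 2 to KO 6. Its log2 fold change of -1.08 (SE 0.60, adjusted p 0.274, edgeR) was the largest of any member and rested on WT 2. Without WT 2 it was 0.43 (adjusted p 0.614). The table also holds Rps27rt, a retrocopy of Rps27. Both genes are annotated on GRCm38, Rps27 at chr3:90212522-90213651 and Rps27rt at chr9:114982366-114982739, each on the minus strand. Their coding sequences have the same length and differ at 0 positions. Of the 31-base words of Rps27, 98.7% occur in another gene. The first 90 bases of the shared coding sequence are shown in lower case, with no capitals because no base differs.
Rps27 and Rps27rt: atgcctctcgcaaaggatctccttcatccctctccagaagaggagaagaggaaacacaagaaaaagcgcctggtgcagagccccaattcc
Rps27rt was at 210, 63.3 and 221 CPM in WT 1 to WT 3 and at 185, 174, 57.5, 91.2 and 57.2 CPM in KO 2 to KO 6. In WT it was lowest where Rps27 was highest and highest where Rps27 was lowest. The sum of both was 280, 357 and 243 CPM in WT, 219 CPM in KO 2, 244 CPM in KO 3, and 142, 144 and 120 CPM in KO 4 to KO 6. The sum had a log2 fold change of -0.75 (SE 0.23) over all libraries and did not pass the test (adjusted p 0.0689, edgeR). In KO 4 to KO 6 it was -1.12 (SE 0.12, adjusted p 1.36e-05), and in KO 2 and KO 3 it was -0.34 (adjusted p 0.314). Over all libraries with the length correction described below it was -0.48 (adjusted p 0.202, edgeR). Counts of such a pair are uncertain for each gene alone. The comparison with copies summed was added after the data were seen.

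**Figure D3:**
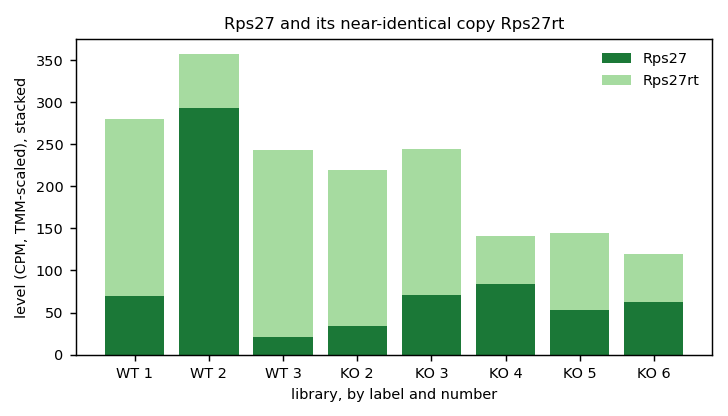
Level in TMM-scaled CPM of Rps27 (dark) and Rps27rt (light), stacked from 0, in each of the 8 libraries. The split between the genes differs from library to library, while the stacks of KO 4 to KO 6 reach 120 to 144 CPM and those of WT reach 243 to 357 CPM.

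Sequence sharing was common among the members. The share of a member's 31-base words found in another gene had a median of 57.1% and ran from 2.19% to 99.0%, and 49 members shared at least 50%. Of the members, 28 had at least 1 row for such a copy among the deposited counts, 37 rows in all, of which 25 stayed under 20 counts in every library. Those with more counts, named after their values were seen, did not all follow their member. Rps16-ps2 was at 7.5 to 9.5 CPM in WT and at 11.8 to 28.6 CPM in the libraries labelled KO, the same direction as Rps16. A copy of Rpl27 (LOC108167922) was at 12.1, 15.05 and 12.9 CPM in WT, at 9.68 CPM in KO 2, at 12.2 CPM in KO 3, and at 0 counts in KO 4 to KO 6, which allows up to 3 counts in each. Rps23-ps1 had a mean of 22.2 CPM in WT and 51.3 CPM in the libraries labelled KO, while Rps23 had a log2 fold change of -0.21. Rpl31-ps8 had means of 2.72 and 16.9 CPM, while Rpl31 had -0.32. Rpl10-ps3 held 68.6% of the counts of Rpl10 and its copy together. With copies summed into their members, the same 4 members were called, Rps16 with a log2 fold change of 0.53 and Rpl27 with 0.33. The sums gave 0.09 for Rps23 and -0.17 for Rpl31, neither called. In KO 4 to KO 6 the sums again gave 48 called members, where 42.8% of all genes were called. Rps23 and Rpl3 were no longer among the 48, while Rpl10 and Rps27 were new. Rps23, Rpl31, Rpl3 and Rpl10 were named after their values were seen.

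The members were short, and transcript length was set beside the fold changes. The transcript with the longest coding sequence had a median of 838 bases over the members, against 2805 over the 18028 tested genes with an annotated transcript. With all genes in 10 equal bins by length, 70 of the 82 tested members fell in the shortest 2 bins, up to 1498 bases. Over all 8 libraries the other genes of these bins had a median log2 fold change of -0.09 and the 70 members 0.01. In KO 2 and KO 3 the other short genes had a median of -0.15 and the short members 0.12, so the members did not share the direction of genes of like length. In KO 4 to KO 6 the medians were -0.06 for the other short genes and -0.10 for the short members.

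Across all tested genes, which share their libraries and are not independent, log2 fold change rose with transcript length. Spearman's rho was 0.14 over all 8 libraries (18028 genes), 0.28 in KO 2 and KO 3 and 0.06 in KO 4 to KO 6. Within the 82 members rho was 0.26, 0.23 and 0.23. Of the 3 shortest members by this length, Rps27 was below 0 over all libraries but above 0 without WT 2, as given above. Rpl36 (383 bases) had -0.36 (SE 0.16, adjusted p 0.169, edgeR) and Rps29 (390 bases) -0.36 (SE 0.17, adjusted p 0.207). In KO 4 to KO 6 Rpl36 and Rps29 were called, at -0.55 and -0.56. Over all 8 libraries the length correction described below gave them -0.12 and -0.11, and the GC correction -0.58 and -0.47, without calls. The 3 longest annotated transcripts did not share a direction. Rpl18 (2989 bases) had 0.32 (adjusted p 0.0619), Rps20 (3706 bases) 0.34 (adjusted p 0.0567) and Rps15a (5179 bases) -0.41 (adjusted p 0.106). They too were called in KO 4 to KO 6, at 0.40, 0.32 and -0.62. The annotated length can exceed that of the message usually made: the shortest transcript with the same coding sequence has 679 bases for Rpl18 and 640 for Rps15a. By that length Rps28 (271 bases) is the shortest member, at 0.35 (adjusted p 0.0583, edgeR). It was named after its values were seen.

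**Figure D4:**
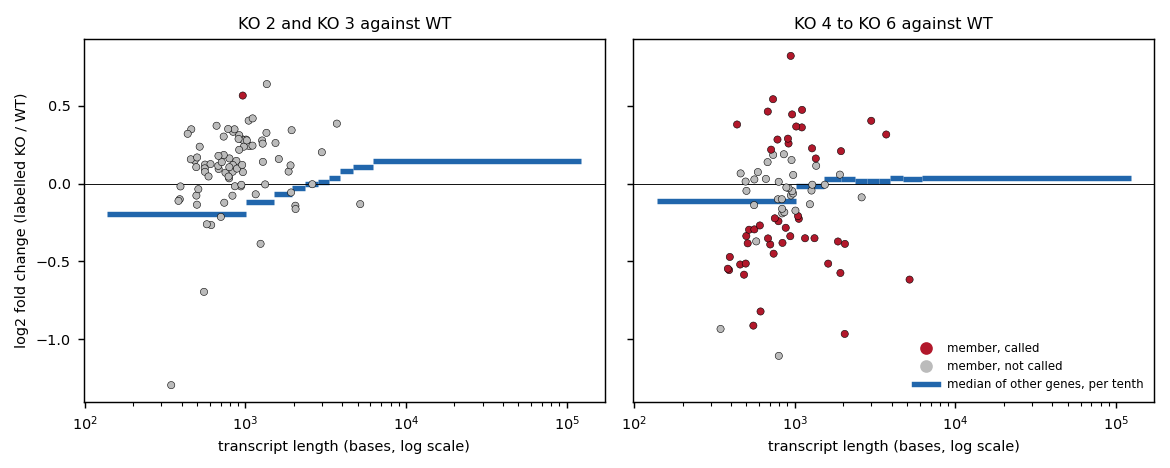
Log2 fold change of each member (points, red where called) against transcript length on a log axis, for KO 2 and KO 3 against WT (left) and KO 4 to KO 6 against WT (right). Blue bars give the median of all other genes in each of 10 equal bins by length. On the left most members lie above the bar of their own length, and on the right they scatter on both sides of it.

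A per-library correction for length moved the members upward. With it 13 members were called, where 7.46% of all genes were, 12 higher and Rpl22l1 lower, and their median log2 fold change was 0.11. All 4 members called without the correction were among the 13. Base composition moved them the other way. Members higher in KO 4 to KO 6 had a median GC content of 54.0% and members lower there 49.2%, while all genes higher there had 55.0% and all genes lower 44.0%. For GC content in KO 4 to KO 6, rho was 0.39 over the members and 0.53 over 17672 genes. With a correction for GC content 3 members were called over all 8 libraries, where 7.17% of all genes were: Rpl22l1 at -0.55, Rps16 at 0.40 and Rps20 at 0.60. Rps2, at 0.31 (adjusted p 0.134, edgeR), and Rpl27, at 0.26 (adjusted p 0.0508), lost their calls. With length and GC content corrected together 7 members were called, where 4.99% of all genes were. Rps16 at 0.55, Rpl27 at 0.46 and Rps20 at 0.59 were among them, while Rps2, at 0.46 (adjusted p 0.0555), and Rpl22l1, whose transcript has a GC content of 40.6%, at -0.26 (adjusted p 0.166), were not.

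In KO 4 to KO 6 these corrections changed the balance of directions but little of the number. With the length correction 48 members were called, where 46.9% of all genes were, 24 higher and 24 lower. With the GC correction 46 were called, where 32.1% of all genes were, 6 higher and 40 lower, and the median log2 fold change was -0.23. Both were added after the data were seen. How length and base composition of the transcripts came to differ between the libraries was not tested.

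The members together took between 1.20% and 1.45% of each library. In WT 1 to WT 3 it was 1.25%, 1.45% and 1.24%, and KO 2 to KO 6 had 1.30%, 1.41%, 1.24%, 1.23% and 1.20%. For KO 6, the lowest, the 95% Wilson interval was 1.196% to 1.205%, which covers counting error only. Means were 1.32% ± 0.118 (SD, n = 3) for WT and 1.28% ± 0.0824 (SD, n = 5) for the libraries labelled KO. Leaving mitochondrial and lens genes out of the library totals, the means were 1.43% ± 0.134 (SD, n = 3) and 1.35% ± 0.127 (SD, n = 5), a difference of -0.0749 percentage points, and KO 4 to KO 6, at 1.24% to 1.29%, lay below the lowest WT library at 1.35%. Over whole libraries the groups overlapped, with the highest share in WT 2 and the lowest in KO 6. By member, 32 of 82 had their highest level in WT 2 and 24 in KO 3, while 32 had their lowest in KO 6. WT 2 thus stood above the other WT libraries, with a median deviation of the members from their own mean of 0.18 on the log2 scale, against -0.06 in WT 1 and -0.09 in WT 3. Without WT 2 the difference between the group means of the share was 0.0284 percentage points upward, and with it -0.0397.

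**Figure D5:**
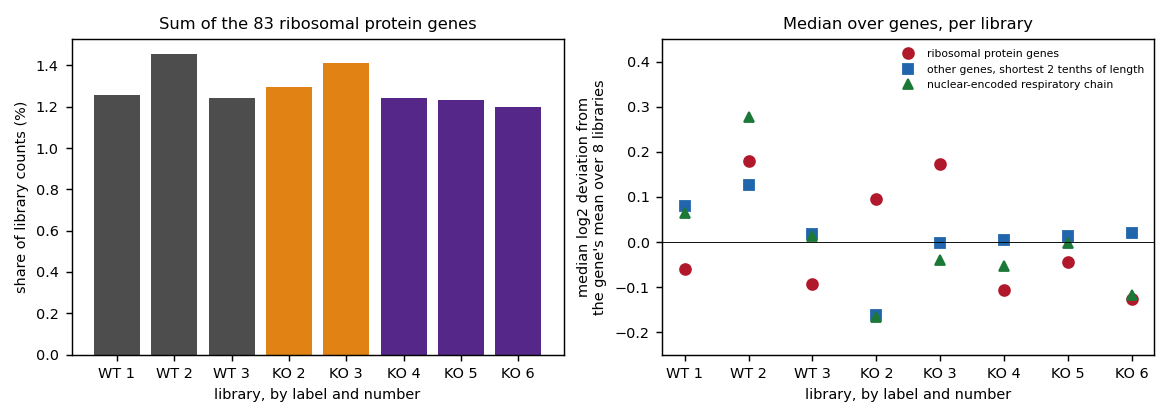
Left, the summed counts of the 83 members as a percent of all counts in each library (bars from 0), between 1.20% and 1.45%. Right, the median over genes of the log2 deviation from the gene's own mean over the 8 libraries, for the members, for other genes in the shortest 2 of 10 bins by length and for nuclear-encoded respiratory chain genes. All these are high in WT 2, while in KO 2 the members are above 0 and the other sets below.

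The right-hand values of that plot differ most in KO 2. There the members had a median deviation of 0.10, other short genes -0.16 and the nuclear-encoded respiratory chain genes, whose transcripts are also short (median 765 bases), -0.17. In WT 2 the same medians were 0.18, 0.13 and 0.28. Of the 75 respiratory chain genes tested over all libraries 14 were lower and 1 higher, and their median was -0.21, where 2.84% of all genes were called lower and 4.74% higher. Of 78 mitochondrial ribosomal proteins 3 were lower and 0 higher in edgeR's test, against the same shares of all genes, with a median of -0.09. The members' own median, given above, was -0.02.

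Other genes of translation were also called in both directions, where 4.74% of all genes were called higher and 2.84% lower. Of 47 translation factors 5 were higher and 1 lower, and their median log2 fold change was 0.15. No difference between these lists and the ribosomal proteins was tested. Eef2, the elongation factor that moves the ribosome along the message, was at 791, 815 and 868 CPM in WT and at 1424, 952, 1365, 1488 and 1466 CPM in KO 2 to KO 6. Its log2 fold change was 0.70 (SE 0.15, adjusted p 0.0266, edgeR), and all libraries labelled KO were above WT. The initiation factor subunits Eif3b, at 0.76 (SE 0.08, adjusted p 0.00139), and Eif3c, at 0.47, were also higher, as were the elongation factor subunits Eef1d (0.42) and Eef1g (0.34). Eif4a2, an initiation factor helicase, was lower, from 464 to 550 CPM in WT to 314 to 417 CPM in the libraries labelled KO, with -0.50 (SE 0.12, adjusted p 0.0384).

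Of 40 genes of ribosome biogenesis 6 were higher and 0 lower in edgeR's test, with a median of 0.25. They were Rrp12 (0.79), Fbl (0.69), Eif6 (0.52), Polr1a (0.48), Bysl (0.46) and Rrp1 (0.44). Fbl encodes fibrillarin, the methyltransferase of ribosomal RNA, and was at 15.1, 18.4 and 19.9 CPM in WT and between 23.9 and 32.4 CPM in the libraries labelled KO, without overlap. Of 22 other TOP messages 3 were higher and 1 lower, all of them also counted among the translation factors. Outside the symbol pattern, Rack1 had a log2 fold change of 0.12, Rpl36al 0.17 and Fau -0.35 (SE 0.36), and these did not pass edgeR's test (adjusted p 0.428, 0.335 and 0.560). Fau, whose protein is cleaved to a small-subunit protein, was highest in WT 2 at 107 CPM, as Rps27 was.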

How the data were processed

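Gene counts were analysed from 8 retina libraries. The authors deposited whole-number counts per gene with no normalization. The submitters' processing notes name Trim Galore, Salmon 1.10.2, DESeq2 and the build GRCm38; strand handling and the filter behind the table, whose rows all total at least 16 counts, are not given in the sources used here. Counts estimated by sharing reads among near-identical transcripts carry that uncertainty.

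Members, lists and comparisons were chosen with earlier results of these data known. Members named in the text are those called (all, being under 12), the stalk genes and Rpsa, paralogues, the 3 shortest and longest transcripts and the 3 highest per kilobase; any other is said to be named after its values were seen. Counts were filtered with filterByExpr (20167 of 26824 genes kept), scaled with TMM factors and compared with edgeR 4.0.16 (R 4.3.3), glmQLFit and glmQLFTest, without covariates. P-values were Benjamini-Hochberg adjusted over all tested genes, and called means under 0.05. Nothing says that libraries came from separate litters or batches, so p-values measure the spread between these libraries. No pair of libraries in a group agreed within sampling noise (chi-square per degree of freedom at least 5.38). Transcript lengths, GC content and shared 31-base words came from GENCODE M21, which held 22121 genes of the table. On simulated counts for this comparison the fit called 119 of 200 genes changed 2-fold and 10 others of 20006 tested. Intervals and the floor of 3 counts cover counting error only.

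Alternatives were other scalings and filters, DESeq2 1.42.0, limma 3.58.1 voom with quality weights, per-library length and GC corrections, single libraries and pairs left out, a covariate for KO 4 to KO 6, and a replicate block. That covariate lies within KO, so its fit tests KO 2 and KO 3 against WT, with KO 4 to KO 6 adding to the spread alone. It is the same difference as in the fit of KO 2 and KO 3 alone. WT and KO share the numbers 2 and 3, with no stated pairing.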

Additional observations from a re-analysis of the deposited data

How the results depend on the processing

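Against 4 members and 1529 genes called, DESeq2 called 14 and 3127, voom with quality weights 41 and 8248, the length correction 13 members, and length with GC content 7 and 900. KO 2 and KO 3 alone gave 1 and 180, KO 4 to KO 6 alone 48 and 8416, and a covariate for KO 4 to KO 6 gave 3 (Rps2, Rplp0 and Rpl22l1) and 949. Leaving out single libraries, or pairs other than KO 2 with KO 3, gave 0 to 20 members and 118 to 3992 genes.

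Libraries WT 2, WT 3, KO 2 and KO 3 gave 52 genes and 0 members with a replicate block, 14 genes and 0 members without it, and 527 genes and 1 member with the numbers crossed. Deviations of same-numbered libraries correlated at -0.00442 and -0.241, which shows no pairing by number. Correlations from so few libraries cannot exclude a shared litter or preparation. The crossed block and the following settings were chosen after seeing the data. KO 2 and KO 3 gave 174 genes and 3 members (Rpl13, Rpl32 and Rps2, with a members' median of 0.31) with the length correction, 166 genes and 0 members with the GC correction, and 182 genes and 1 member with copies summed. KO 4 to KO 6 gave 8280 genes and 48 members, 5676 and 46, and 8418 and 48 in the same order. Copies summed with the length correction gave 14 members. Rpl13 and Rpl32 were named after their values were seen.

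Spearman's rank correlation between fold change and length, 0.14, was 0.0464 with the median transcript length, 0.28 in KO 2 and KO 3, 0.0610 in KO 4 to KO 6, 0.27 with the GC correction and 0.0744 to 0.170 without single libraries. The group difference in share was -0.0767 to 0.0284 percentage points without single libraries.

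Of 35 alternatives, Rpl22l1 was called in 30, Rps2 in 25, Rps16 in 19 and Rpl27 in 17, and none of the 4 reversed. The members' median ran from -0.07 to 0.10 with the libraries left out. Rplp2 reversed to 0.0026 with TMM factors computed without ribosomal protein genes, 0.11 with the length correction, 0.074 in KO 2 and KO 3, 0.073 with the covariate, 0.089 with the block and 0.071 without it, and ran from -0.11 to 0.12 with the same libraries left out. Rpl13a reversed to -0.16 with voom, -0.052 with the GC correction and -0.21 in KO 4 to KO 6, and ran from -0.11 to 0.25. Rps27l reversed to 0.12 with length and GC content. Rps4l was -0.0082 in KO 2 and KO 3, -0.0088 with the covariate, -0.010 with the block and -0.0091 without it. Rps27 ran from -1.58 to 0.43. The cause was not tested. Depth limits Rpl39l, at 1 to 15 counts against a floor of 3, and Rps3a3, with 2 to 22 counts per library.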
